A study of Bos taurus with 6 samples.

Results

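The miR-181 family of cattle was followed in primary bovine myoblasts through its members bta-miR-181a, bta-miR-181b, bta-miR-181c and bta-miR-181d. The members were chosen by name, and they are 4 of the 765 miRNAs that the authors listed in their table of the experiment. The myoblasts came from fetal longissimus dorsi muscle and were held for 4 days in differentiation medium. In the RSV group, 3 cultures received 20 μM resveratrol dissolved in DMSO. In the DMSO group, 3 cultures received the solvent alone, so both groups share the solvent and the medium. The cells are primary cultures, not a line grown from a single clone. The sources used here do not say how many fetuses gave them.

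A miRNA is a short RNA that guides a protein complex to matching sites in mRNAs and lowers the output of these mRNAs. The miR-181 members carry the same seed, the stretch near the 5′ end that finds the target, and so are expected to share many targets. The family is best known from lymphocytes, where miR-181a sets the sensitivity of the T cell receptor. In muscle it is known to rise as myoblasts differentiate and to lower the homeobox protein Hox-A11, which holds back differentiation.

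The members come from precursors in clusters. In the RefSeq gene table of assembly ARS-UCD2.0, MIR181A-1 and MIR181B-1 are direct neighbours, and the closest protein-coding genes on either side are PTPRC, which encodes the leukocyte antigen CD45, and NR5A2, which encodes a nuclear receptor. MIR181A-2 and MIR181B-2 are direct neighbours within the span of NR6A1, the gene of another nuclear receptor. MIR181C and MIR181D are direct neighbours within the span of NANOS3, a gene of germ cell development. The reads of bta-miR-181a and bta-miR-181b can therefore come from either of their clusters, and the table gives them as a single row each. For bta-miR-181c and bta-miR-181d the gene table has a single locus each, in the cluster in NANOS3. How reads that match several members were assigned is not given in the sources used here. Outside the family, some rows had equal means, so the same reads may have been counted in each of them. For example, bta-let-7b and bta-miR-3596 both had mean read counts of 12896 in RSV and 14991 in DMSO. Identical means were also given for bta-miR-22-3p and bta-miR-3600. No row had the same means as a member of the family. Whether reads were counted for several members was not tested. bta-miR-181a was 88.8 times as abundant as bta-miR-181c in RSV and 175 times in DMSO. The build of this gene table differs from that of the deposited data, so it was used for names and neighbours alone.

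The authors' table gives, for every miRNA, the mean normalized read count of each group, that is reads divided by a size factor that scales each library for depth. It has no column for a single culture. A group mean made of 3 libraries is a sum of whole reads over 3 size factors, and this was used to recover the reads of each library. The size factors came out as 1.54, 1.29 and 0.935 in the RSV group and as 0.922, 0.823 and 0.729 in the DMSO group. Every RSV library was thus deeper than every DMSO library. Reads were settled for 618 of the 619 miRNAs whose mean did not exceed 1000 normalized reads in either group, bta-miR-181c and bta-miR-181d among them. The libraries recovered in this way carry no replicate number and are named here by group and size factor.

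The family was expressed in both groups, with a wide range between members. In the authors' table bta-miR-181a was the most abundant member, at a mean of 6167 normalized reads in RSV and 6728 in DMSO. bta-miR-181b followed with means of 2595 in RSV and 2770 in DMSO. bta-miR-181d had means of 940.4 in RSV and 795.2 in DMSO. bta-miR-181c was the least abundant, with means of 69.4 in RSV and 38.5 in DMSO. The order was therefore miR-181a, miR-181b, miR-181d and miR-181c in both groups, and no member changed place. Among all 765 miRNAs, ranked by the mean of both groups, the members held ranks 72, 101, 150 and 282 in this order. Mature miRNAs are nearly equal in length, so no length correction was made. Whether the members enter a library with equal efficiency was not tested, so their order and shares are those of reads.

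**Figure D1:**
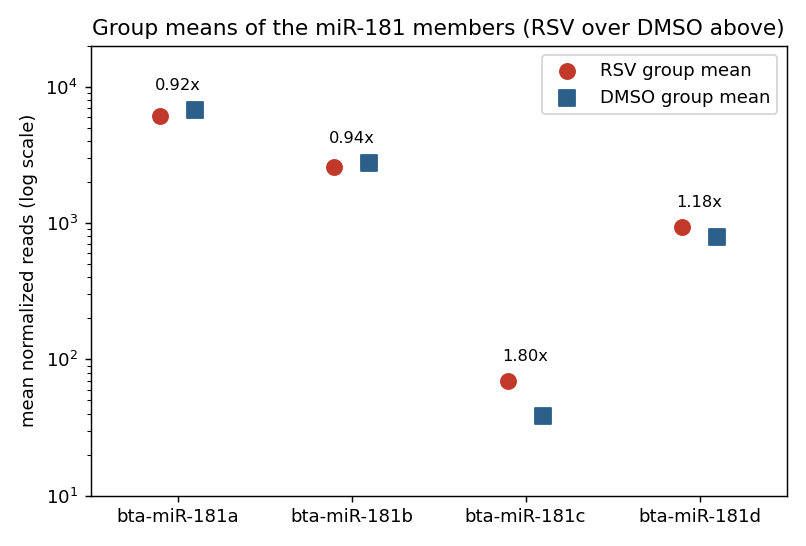
Mean normalized reads of each miR-181 member in the RSV group (circles) and the DMSO group (squares), on a log axis, with the ratio of RSV to DMSO above each pair. The points are the authors' group means and carry no error; miR-181c has the largest ratio, 1.80, and the lowest level.

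Summed over the 4 members, the means came to 9772 normalized reads in RSV and 10331 in DMSO. This was 0.147% of the summed means of all miRNAs in RSV and 0.141% in DMSO. That sum includes rows of equal or nearly equal means, so some reads may be counted in it more than once. For example, bta-miR-199a-3p and bta-miR-3604 had 321333 and 321286 in RSV, and 407149 and 407041 in DMSO. bta-miR-181a made up 63.1% of the family in RSV and 65.1% in DMSO, and bta-miR-181b 26.6% and 26.8%. bta-miR-181d made up 9.62% in RSV and 7.70% in DMSO. The share of bta-miR-181c was 0.710% in RSV and 0.373% in DMSO. The family total was thus set by miR-181a and miR-181b, and the member with the largest ratio between the groups added less than any other to it.

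bta-miR-181a and bta-miR-181b were slightly lower in the mean of the RSV group. The ratio of the RSV to the DMSO mean was 0.917 for miR-181a and 0.937 for miR-181b, which are log2 ratios of −0.13 and −0.09 with 0.5 added to each mean. Many combinations of whole reads fitted each of these larger means, so the values of single libraries were not recovered. No spread and no test of these members is given here. Of the 146 miRNAs whose average of both groups was 1000 normalized reads or more, 85 had a log2 ratio at least as far from 0 as miR-181a, and 99 at least as far as miR-181b, each with the member itself included. The direction also depends on the scaling. As a share of the summed means of all miRNAs, miR-181a was at 0.0929% in RSV and 0.0916% in DMSO, and miR-181b at 0.0391% and 0.0377%, both higher in RSV. The summed means of all miRNAs had a log2 ratio of −0.15 themselves, with the rows of equal or nearly equal means left in. A difference between the groups was thus not shown for either member. The group mean of miR-181a over that of miR-181b was 2.38 in RSV and 2.43 in DMSO. A scaling common to a whole group does not change this ratio, but the size factors still weight its libraries.

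bta-miR-181c was higher in every RSV library than in every DMSO library. In RSV, the library of size factor 1.54 held 132 reads of miR-181c, or 85.6 normalized reads (95% Poisson interval 71.6 to 102). The RSV library at 1.29 held 77 reads, or 59.5 normalized reads (47.0 to 74.4). The RSV library at 0.935 held 59 reads, or 63.1 normalized reads (48.0 to 81.4). The library at 1.54 was therefore the highest of the 3, and the other two lay close to each other.

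In the DMSO libraries at 0.922, 0.823 and 0.729, miR-181c had 32, 35 and 28 reads. These were 34.7, 42.5 and 38.4 normalized reads, with 95% Poisson intervals of 23.7 to 49.0, 29.6 to 59.1 and 25.5 to 55.5. The intervals cover counting error only, and those of the lower RSV libraries overlap those of the DMSO libraries. The lowest RSV library was 17.0 normalized reads above the highest DMSO library. The groups did not overlap, which was also so for 48 of the 244 miRNAs tested (19.7%) in this direction.

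The means of miR-181c were 69.4 ± 14.2 normalized reads in RSV and 38.5 ± 3.90 in DMSO (SD, n = 3 each). limma voom, a linear model on log2 reads weighted by their precision, was fitted over the 244 miRNAs that had settled reads and averaged 10 normalized reads or more. It gave miR-181c a log2FC of 0.85 (standard error 0.20), or 1.80-fold with a 95% interval of 1.33 to 2.45. The adjusted P-value from limma voom with Benjamini-Hochberg adjustment was 0.0283. bta-miR-181c was thus up-regulated at 0.05, as 1 of 13 of the 244 miRNAs (5.33%), while 9 (3.69%) were down-regulated and 22 (9.02%) changed in either direction. These counts fell to 2 higher and 5 lower without the DMSO library at 0.922, to 1 and 2 without that at 0.823, and to 1 and 5 without that at 0.729. Among the 9 down-regulated miRNAs of the full fit, bta-miR-1814c and bta-miR-2310 had identical reads in every library. bta-miR-181c held rank 10 of the 244 by log2FC and rank 15 by P-value. An exact permutation test of its 6 libraries gave p = 0.10 (two-sided), the smallest that 3 against 3 allow.

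The call of miR-181c was lost without any 1 of 4 libraries. Without the RSV library at 1.54, the log2FC fell to 0.66 and limma voom gave 0.0544 as the adjusted P-value. Without the DMSO library at 0.922, 0.823 or 0.729, the log2FC was 0.77, 0.93 or 0.85, and the adjusted P-value from limma voom was 0.149, 0.101 or 0.112. Without the RSV library at 1.29 or at 0.935, the adjusted P-values were 0.0106 and 0.0212.

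**Figure D2:**
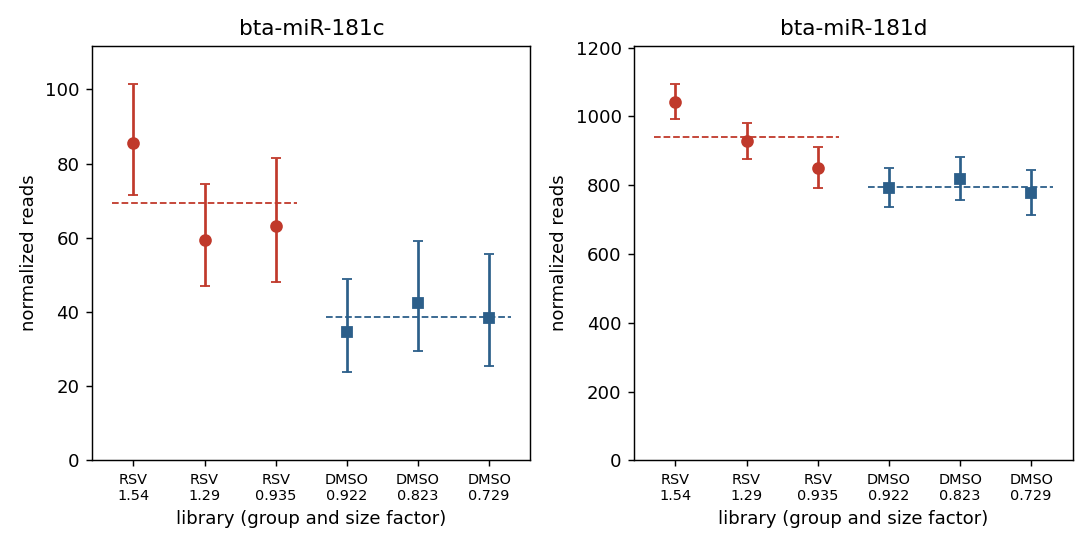
Normalized reads of bta-miR-181c (left) and bta-miR-181d (right) in each library, labelled by group and size factor; RSV in circles, DMSO in squares. Vertical bars are 95% Poisson intervals of the reads and dashed lines are group means. For both miRNAs the lowest RSV point lies above the highest DMSO point, by 17.0 and 32.7 normalized reads. This non-overlap was found for 48 of the 244 miRNAs tested (19.7%). The RSV points of miR-181d are the narrowest of 8 combinations of reads that fitted, and with the next narrowest its groups overlapped.

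bta-miR-181d, from the same cluster as miR-181c, was also higher in every RSV library, with a smaller difference, in the combination of reads used here. The RSV library at 1.54 held 1608 reads, or 1043 normalized reads. The RSV library at 1.29 held 1201 reads, or 928.2 normalized reads, and that at 0.935 held 795 reads, or 850.0 normalized reads. In the DMSO libraries at 0.922, 0.823 and 0.729 there were 730, 673 and 566 reads, or 791.8, 817.3 and 776.5 normalized reads. The lowest RSV library was 32.7 normalized reads above the highest DMSO library. Such non-overlap in this direction was found for 48 of the 244 miRNAs tested (19.7%).

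The DMSO libraries lay closer together than the RSV libraries. The means of miR-181d were 940.4 ± 97.2 normalized reads in RSV and 795.2 ± 20.6 in DMSO (SD, n = 3 each). limma voom gave a log2FC of 0.24 (standard error 0.09), or 1.18-fold with a 95% interval of 1.03 to 1.36. The adjusted P-value from limma voom was 0.131 with Benjamini-Hochberg adjustment (P-value before adjustment 0.0258), so miR-181d was not called at 0.05. Without the RSV library at 0.935, the lowest of its group, the log2FC was 0.31 and the adjusted P-value from limma voom 0.0475. Without the RSV library at 1.54, the highest, they were 0.16 and 0.317, and without any 1 of the other 4 libraries the adjusted P-value from limma voom lay between 0.206 and 0.290. The exact permutation test of the 6 libraries gave p = 0.10 (two-sided), the smallest possible.

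The reads of miR-181d rest on a further choice in the RSV group. Its DMSO mean was given by a single combination of reads, but its RSV mean by 8. The combination used was the only one in which the highest library was at most 2 times the lowest. The next narrowest, with 672.7, 1577 and 572.0 normalized reads, spread by 2.76 times, and with it the RSV and DMSO libraries overlapped. With this combination the log2FC was 0.11 (standard error 0.32), at an adjusted P-value from limma voom of 0.897. Of the 68 miRNAs that averaged 100 to 400 normalized reads in RSV and had a single combination there, 1 spread by at least as much, as did 3 of the 101 that averaged 50 to 400. For miR-181c, a single combination gave the mean in each group.

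Within the RSV group, the library at 1.54 was highest for miR-181c, and the other two lay within counting error of each other. In the combination used for miR-181d, the order of the libraries was that of their size factors, while in the next narrowest the library at 1.29 was highest. The coefficient of variation of miR-181c was 20.4% in RSV, against 10.8% from counting alone, and 10.1% in DMSO, against 17.8% from counting alone. That of miR-181d was 10.3% in RSV, against 2.95% from counting, and 2.59% in DMSO, against 3.92% from counting. With 3 libraries a group these spreads are themselves uncertain, and that of miR-181d in RSV rests on the narrowest combination. Among the 25 other tested miRNAs between 500 and 1000 normalized reads, the median coefficient of variation was 6.33% in RSV and 7.16% in DMSO, and 7 of them varied at least as much as miR-181d in RSV. At the level of miR-181c, among 66 others of 30 to 100 normalized reads, it was 14.6% and 12.7%, and 12 of them varied at least as much as miR-181c in RSV. The spread of miR-181c in RSV was thus not unusual for its level. Reads of the 25 others at the level of miR-181d were likewise settled only with the limit on the highest over the lowest library. Their spread was thus limited in advance, and whether that of miR-181d was unusual cannot be told.

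Compared with miRNAs of like level, both members lay toward the higher end in RSV. Of the 66 others at the level of miR-181c, 4 had a log2FC as high or higher, and 34 had one below 0. Of the 25 others at the level of miR-181d, 1 had a log2FC as high or higher and 14 had one below 0. None of the 25 was called in either direction by limma voom, while 3 of the 66 were called higher and 5 lower.

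**Figure D3:**
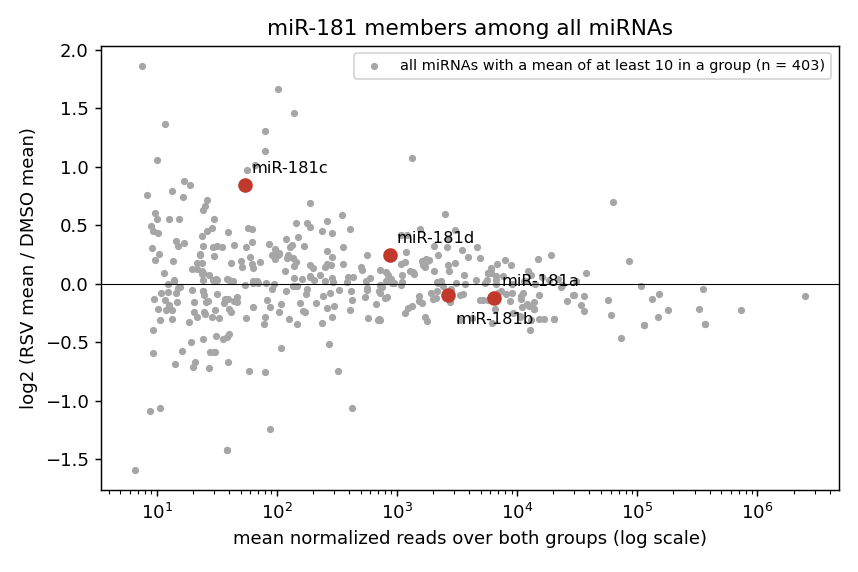
The log2 ratio of RSV to DMSO group means (with 0.5 added to each) against the mean over both groups on a log axis, for the 403 miRNAs that reach a mean of 10 in a group (grey) and the miR-181 members (red). miR-181c stands at 0.84 and miR-181d at 0.24, above 0, while miR-181a and miR-181b stand at −0.13 and −0.09, within the bulk of the abundant miRNAs.

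Over the group means, miR-181c was the only member past 1.5-fold. Of the 403 miRNAs that reached a mean of 10 normalized reads in a group, 24 (5.96%) were at least 1.5-fold higher in RSV and 20 (4.96%) at least 1.5-fold lower. For 20 of the 403, miR-181c included, the log2 ratio was as far from 0 as that of miR-181c, or farther. The median of all 403 log2 ratios was 0.01. The median distance from 0 was 0.26 for the 155 with a mean under 100 normalized reads and 0.14 for the 146 at 1000 or more.

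The cluster of miR-181c and miR-181d can be set against the clusters of miR-181a and miR-181b. The means of miR-181c and miR-181d summed to 1010 normalized reads in RSV and 833.7 in DMSO, a ratio of 1.21. Those of miR-181a and miR-181b summed to 8762 and 9498, a ratio of 0.923. Relative to miR-181a and miR-181b, the other cluster thus stood at 11.5% in RSV and 8.78% in DMSO. These ratios within a group do not change with a scaling common to its libraries, but they are made of group means and no error can be given.

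The ratio of miR-181c to miR-181d can be taken within each library, where the size factor drops out. There were 8.21, 6.41 and 7.42 reads of miR-181c per 100 reads of miR-181d in the RSV libraries at 1.54, 1.29 and 0.935. In the DMSO libraries at 0.922, 0.823 and 0.729 there were 4.38, 5.20 and 4.95. With the combination of miR-181d reads used here, the ratio was higher in every RSV library than in every DMSO library. How often other pairs of miRNAs separate in this way was not counted. The ratio is made of the reads already given for both members and is not a separate observation. The log2 ratio was −3.77 ± 0.18 in RSV and −4.37 ± 0.13 in DMSO (SD, n = 3 each), a difference of 0.60, or 1.51-fold. A two-sided exact permutation test gave p = 0.10, the smallest that 3 against 3 allow. The non-overlap rests on the combination of reads used for miR-181d. With its next narrowest combination in RSV, the RSV libraries at 1.54, 1.29 and 0.935 had 12.7, 3.77 and 11.0 reads of miR-181c per 100 of miR-181d, the second below all DMSO libraries. The difference in log2 ratio was then 0.74 and the exact permutation p was 0.40. Whether both miRNAs come from a shared primary transcript in these cells was not measured.

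**Figure D4:**
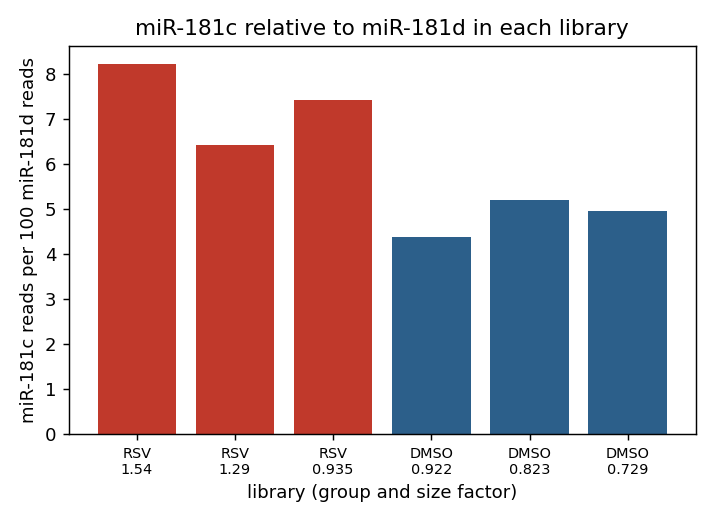
Reads of bta-miR-181c per 100 reads of bta-miR-181d in each library, labelled by group and size factor; RSV bars in red, DMSO bars in blue, axis from 0. The RSV libraries lie between 6.41 and 8.21 and the DMSO libraries between 4.38 and 5.20. The RSV bars use the narrowest of 8 combinations of miR-181d reads. With the next narrowest, the RSV libraries at 1.54, 1.29 and 0.935 would stand at 12.7, 3.77 and 11.0, and the groups would overlap.

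Over the 6 libraries, the profiles of miR-181c and miR-181d on the scale of log2(normalized reads + 0.5) had a Pearson correlation of 0.92. Among the 243 other tested miRNAs, miR-181d was the fifth closest to miR-181c and miR-181c the second closest to miR-181d. The closest to miR-181c were bta-miR-3957 (r = 0.98), bta-miR-491 (0.96), bta-miR-30b-3p (0.96) and bta-miR-449a (0.93). The closest to miR-181d was bta-miR-329a (0.94), and after miR-181c followed novel_674 (0.88), bta-miR-6121-3p (0.87) and bta-miR-6517 (0.87). The 6 libraries come from 2 groups and all profiles share their size factors, so these values include the difference between the groups. With the next narrowest combination of miR-181d reads, its correlation with miR-181c was −0.08, so the likeness of the pair rests on that choice too.

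The culture was checked against miRNAs of muscle and of other cells. The muscle miRNAs bta-miR-206, bta-miR-1, bta-miR-133a and bta-miR-133b, which rise as myoblasts differentiate, were all listed, with means of 127629, 28912, 7817 and 5687 normalized reads in RSV and 139464, 30883, 7453 and 5550 in DMSO. miRNAs common in fibroblasts and smooth muscle were abundant too, with bta-miR-199a-3p at 321333 in RSV and 407149 in DMSO, bta-miR-143 at 349090 and 360521, and bta-miR-145 at 30998 and 30450. These miRNAs are also found in muscle cells, and in such bulk samples a smaller share of a cell type and less RNA per cell cannot be told apart.

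Markers of blood cells were checked because miR-181a is abundant in lymphocytes. Of 6 such miRNAs, 5 were in the table. Their summed level was 75.9, 467 and 256 normalized reads in the RSV libraries at 1.54, 1.29 and 0.935, and 117, 91.1 and 171 in the DMSO libraries at 0.922, 0.823 and 0.729. bta-miR-451, a miRNA of red blood cells, reached 463 normalized reads in the RSV library at 1.29 and lay between 53.4 and 97.4 in the other 5 libraries. bta-miR-150, a miRNA of lymphocytes, was at 72.7 in the RSV library at 0.935, at 3.24 and 1.55 in the other RSV libraries and between 25.5 and 41.2 in DMSO. bta-miR-223, a miRNA of neutrophils and other myeloid cells, was at 0 in all 3 RSV libraries and at 1.08, 3.64 and 9.60 normalized reads in the DMSO libraries at 0.922, 0.823 and 0.729. The leukocyte miRNAs bta-miR-142-3p and bta-miR-142-5p reached 35.3 and 66.3 in the RSV library at 0.935. In the other 5 libraries they were at most 5.49 and 17.8. The RSV library at 1.54, which had the most miR-181c, had the lowest blood marker sum of all 6 libraries. Most of that sum was bta-miR-451, at 66.8 normalized reads. bta-miR-142-3p, bta-miR-142-5p and bta-miR-150 were at 1.30, 4.54 and 3.24 there, and lower in the RSV library at 1.29, at 0, 2.32 and 1.55. The liver miRNA bta-miR-122 was highest in the RSV library at 1.54, at 200.5 normalized reads against 26.3 and 38.5 in the other RSV libraries and 17.0 to 87.8 in DMSO. Whether RNA from other cells bears on miR-181a, the lymphocyte member, was not tested, since its libraries could not be separated.

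The endothelial marker bta-miR-126-3p ranged from 172 to 365 normalized reads over the RSV libraries and from 234 to 311 over the DMSO libraries, and bta-miR-126-5p from 8.68 to 11.0 over all 6. Of 3 nerve markers, bta-miR-124a was at 0 in 2 RSV libraries, at 1.07 normalized reads in the other and between 1.37 and 6.51 in DMSO, bta-miR-9-5p had means of 1109 in RSV and 1097 in DMSO, and the third was not in the table.

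Other miRNAs are known to promote myoblast differentiation too. Of 20 such miRNAs, 19 were in the table, and their log2 ratios of group means ran from −0.35 to 1.30 with a median of −0.10. In 8 the RSV mean was higher and in 11 the DMSO mean, and 1 of the 19 was past 1.5-fold, beside 24 higher and 20 lower of the 403 above. Reads of single libraries could be tested for 4 of them, and 1 was called, where 22 of all 244 were (9.02%). bta-miR-499, a miRNA encoded within a myosin gene of slow muscle, was called higher by limma voom, at an adjusted P-value of 0.0190 and a log2FC of 1.27 (standard error 0.27). bta-miR-29b, bta-miR-29c and bta-miR-486 were not called, with log2FC values of 0.22, 0.13 and −0.04 from limma voom.

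Of 5 miRNAs known to hold myoblasts back from differentiation, none was past 1.5-fold, and of all 146 miRNAs at 1000 normalized reads or more 3 were higher by that fold and 0 lower. bta-miR-221, bta-miR-222, bta-miR-125b, bta-miR-155 and bta-miR-23a had log2 ratios of −0.03, 0.03, −0.10, −0.08 and 0.02. bta-miR-222 was also a neighbour of bta-miR-181a by level, with means of 6722 in RSV and 6564 in DMSO. All 5 lay above the 1000 normalized reads up to which reads were recovered, so they were not tested here.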

How the data were processed

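Small RNA of 3 RSV and 3 DMSO cultures was sequenced as short single-end reads, which the authors mapped to the cattle build bosTau8 with Bowtie 0.12.9 and assigned to known miRNAs with miRBase and miRDeep2. How reads that match several members were treated is not given in the sources used here, though some rows outside the family had identical means. The deposited values used are group means of read counts divided by size factors. The authors' fold change and P-value columns, and the mRNA part, whose decimal points were mostly lost, were not used.

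Means print at most 10 significant digits. Units of 1 over 3 size factors were found that wrote all 145 RSV and 98 DMSO means under 6 as whole reads. Where several combinations of reads gave a mean, the only one with the highest library at most 2 times the lowest was taken (32 of the 618 miRNAs). On 1113 simulated means (dispersion 0.02, a spread narrower than some real miRNAs showed), 1081 gave a single combination, right in 1081, and 29 were chosen by the limit, right in 29.

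The voom step and linear model of limma 3.58.1, run in R 4.3.3, took library sizes in proportion to the size factors. In a simulation of 245 miRNAs at the same dispersion of 0.02, with 60 changed 2-fold, the model recovered 48 (80%) and called 0 others. No simulated library stood apart from the others as some real ones did, so these rates may not hold for the real data. Reads were recovered with numpy 2.4.6 and pandas 2.3.3 under Python 3.11.15, exact tests were run with scipy 1.17.1, and plots drawn with matplotlib 3.10.9. The text names the members, the 5 closest profiles, level neighbours and miRNAs of fixed lists. Members and lists were chosen with earlier results of these data known. The study's methods describe 3 independent experiments per group, and P-values measure the spread between them. The listed bta-miR-1814c shares letters with the family's name but is no member.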

Additional observations from a re-analysis of the deposited data

How the results depend on the processing

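No paired analysis was possible because the recovered libraries carry no replicate number. As shares of all miRNA reads, the log2 ratios of bta-miR-181a and bta-miR-181b reversed, to 0.020 and 0.051. This scaling divides by the summed means of all miRNAs, which were lower in RSV. Rows of equal or nearly equal means were left in that sum, and shares without them were not computed. Other pseudocounts and centring on the median kept the direction of all 4 members. The limma voom log2FC of bta-miR-181c ranged from 0.66 to 0.97 with each library left out in turn, with adjusted P-values from 0.0106 to 0.149, and that of bta-miR-181d from 0.16 to 0.31, with adjusted P-values from 0.0475 to 0.317. With no filter, a filter at 30 normalized reads, a trended prior or the recovered totals as library sizes, the adjusted P-value of miR-181c from limma stayed between 0.0141 and 0.0342 and that of miR-181d between 0.114 and 0.178. The difference in the log2 ratio of miR-181c to miR-181d ranged from 0.51 to 0.69 with each library left out, and was 0.74 with the next narrowest combination of miR-181d reads, chosen after seeing the data, where the groups overlapped. limma voom called 13 miRNAs higher and 9 lower. These counts ranged from 1 to 17 and from 2 to 13 with each library left out, lowest without the DMSO libraries at 0.823 or 0.729 (1 higher each) and 0.823 (2 lower), and 5 were lower and 2 higher without that at 0.922. With no filter on low means, 17 miRNAs were called lower, over 618 tested. Restricting the fit to single combinations, chosen after seeing the data, left 11 higher and 9 lower. The cause of the changes without a library was not tested. For miR-181a and miR-181b the printed digits limit what can be known, with 121 and 50 combinations of reads within a 2-fold spread for miR-181a in RSV and DMSO, and 20 and 6 for miR-181b.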

Other observations

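The miRNAs next to each member by level give a scale for its difference. Around bta-miR-181a, the log2 ratios of the group means were 0.03 for bta-miR-222, −0.21 for bta-miR-224, −0.34 for bta-miR-452 and 0.09 for bta-miR-30c, beside −0.13 for miR-181a itself. Around bta-miR-181b they were −0.16 for bta-miR-365-3p, 0.11 for bta-miR-6119-5p, 0.16 for bta-miR-370 and 0.39 for bta-miR-495, beside −0.09. Both members thus lay within the range of their neighbours. Around bta-miR-181d they were 0.00 for bta-miR-184, 0.04 for bta-miR-2478, 0.08 for bta-miR-154b and −0.12 for bta-miR-323, beside 0.24. Around bta-miR-181c they were 0.32 for bta-miR-2431-5p, −0.01 for bta-miR-23b-5p, 0.14 for bta-miR-677 and 0.19 for bta-miR-1185, beside 0.84. These last members lay above all 4 of their neighbours, which is a description of group means and not a test.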
